A study of Mus musculus with 16 samples.

Results

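Ier2, Dusp1, Btg2, Klf2, Klf4, Zfp36 and Gadd45b are immediate-early genes whose products restrain, shorten or reshape a response to a signal. They were taken as the array features annotated to these 7 symbols, 1 feature each, among 19505 genes covered by 19572 tested features. Signals were measured on 16 one-colour mouse arrays, with 4 arrays in each of 4 groups, and are log2 values as deposited. Every array held RNA from 3 pooled mice of the C57BL/6 strain, of both sexes and 7 to 12 weeks old, all with the S100a5-tauGFP reporter. Its fluorescent protein is driven by S100a5, a gene for a calcium-binding protein that olfactory sensory neurons (OSNs) switch on with sensory activity. The 24 mice were housed alone in chambers with clean air (40 h, 3.1 L per min). From 26 h on, 12 mice received the odorant mixture, undecanal and bourgeonal, for 10 s every 20 min, and 12 received filtered air, the vehicle. Dissociated olfactory mucosa of each of the 8 pools was sorted by fluorescence into a fraction titled GFP+ and a fraction titled GFP-. Same-numbered fractions of a treatment came from the same mice.

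The titles and the cell type characteristics gave opposite GFP status on each of the 16 arrays. Groups follow the titles, and each fraction difference is the titled GFP+ value minus the titled GFP- value. S100a5 itself went against the titles. Its log2 signal was 15.51, 15.44, 15.33 and 15.22 in the vehicle arrays titled GFP+, against 16.44, 16.30, 16.46 and 16.29 in those titled GFP-. In odor pools the values were 14.65, 15.75, 15.48 and 15.48 against 17.08, 16.46, 16.56 and 16.51. If the characteristics are right, a gene written here as higher in titled GFP+ cells was higher in the non-fluorescent fraction. Correlations between arrays of 1 group ran from 0.979 to 0.995. Of the mature OSN markers 17 of 18 were above the main background level (defined with the results) in every group on at least 1 array, the exception being Cngb1, with 0 of 18 higher and 4 of 18 lower in titled GFP+ cells in each treatment. Neutrophil and other leukocyte markers differed far more, and their values are given beside the results.

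Immediate-early genes are transcribed within minutes of a stimulus from factors already present in the cell, such as SRF, CREB and their kinase-activated partners. Several of them encode brakes on the same response. Dusp1 is a nuclear phosphatase that inactivates MAP kinases. Zfp36 (tristetraprolin) binds AU-rich elements in messenger RNAs, many of them of cytokines, and speeds their decay. Btg2 is an antiproliferative protein that recruits the CCR4-NOT deadenylase, and Gadd45b is a stress-induced regulator of kinase signalling and DNA demethylation. Klf2 and Klf4 are zinc-finger transcription factors linked to quiescence and differentiation, and Ier2 is a small nuclear protein with a less defined role. In neurons, including OSNs, genes of this class rise with activity, and they are also strongly inducible in leukocytes and epithelia.

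Promoters of 6 of the 7 genes were matched by symbol in RefSeq (GRCm38.p6), each as 300 bases from 250 before to 50 after the annotated start. Both strands were searched for known immediate-early elements, and the count of all 32851 promoters with the same letters is the comparison. The promoters of Btg2, Dusp1 and Zfp36 are shown because they hold the full CRE (TGACGTCA, bound by CREB) or the CArG box (bound by SRF). They lie at chr1:134079106-134079405, chr17:26508423-26508722 and chr7:28379179-28379478, all on the minus strand, and are written 5′ to 3′ in the direction of the gene with motif matches in capitals.
Btg2: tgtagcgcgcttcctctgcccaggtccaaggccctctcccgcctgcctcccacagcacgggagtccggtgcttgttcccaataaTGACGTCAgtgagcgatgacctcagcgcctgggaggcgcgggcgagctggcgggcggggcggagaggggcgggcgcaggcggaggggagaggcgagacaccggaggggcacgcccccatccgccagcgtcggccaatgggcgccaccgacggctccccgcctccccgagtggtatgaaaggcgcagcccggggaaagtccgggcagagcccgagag
Dusp1: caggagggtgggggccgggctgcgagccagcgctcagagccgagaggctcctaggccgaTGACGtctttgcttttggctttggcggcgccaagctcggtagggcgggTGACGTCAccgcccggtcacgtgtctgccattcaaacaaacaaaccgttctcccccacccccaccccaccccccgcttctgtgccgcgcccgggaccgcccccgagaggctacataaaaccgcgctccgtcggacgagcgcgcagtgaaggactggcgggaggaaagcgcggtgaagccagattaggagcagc
Zfp36: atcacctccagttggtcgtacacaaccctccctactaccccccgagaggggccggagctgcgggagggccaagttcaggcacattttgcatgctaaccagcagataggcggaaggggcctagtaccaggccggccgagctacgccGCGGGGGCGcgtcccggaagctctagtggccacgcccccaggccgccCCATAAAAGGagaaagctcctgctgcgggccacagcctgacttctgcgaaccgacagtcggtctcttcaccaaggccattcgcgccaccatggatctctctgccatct
The capitals of Btg2 are 1 CRE at -166 to -159 from the start. Those of Dusp1 are a CRE at -143 to -136 and the CRE core alone (TGACG) at -191 to -187. Those of Zfp36 are the EGR element GCGGGGGCG at -105 to -97 and the CArG box at -58 to -49.

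Across all promoters the CRE was found in 1.79%, the CArG box in 1.63% and GCGGGGGCG in 2.91%. The core, which every full CRE also contains on both strands, was found in 20.8% of all promoters. It was present in 4 of the 6 promoters here, those of Btg2, Dusp1, Klf2 and Klf4. GCGGGGGCG, the letters bound by Egr proteins, was present in 3, those of Klf2, Klf4 and Zfp36. The other EGR form, GCGTGGGCG, was in 0 of 6 and in 0.612% of all promoters. The AP-1 element TGACTCA, bound by Fos and Jun dimers, was in 0 of 6 and in 5.20% of all. TATAAA was present in Gadd45b alone of the 6, at -46 to -41, and in 13.6% of all. The GC content of the 6 promoters was 62.0% to 74.3%, above the median of 52.7% over all promoters, and GC-rich letters are more often met in such sequence. Letter matches in these windows are descriptions and were not tested as sites.

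In vehicle pools, which smelled filtered air only, all 7 genes had a higher mean signal in the titled GFP+ fraction, and 5 passed the test: Zfp36, Btg2, Gadd45b, Klf4 and Klf2. None was lower. Of all 19572 features, 9.82% were called higher, 7.05% lower and 16.9% in either direction (limma, Benjamini-Hochberg adjusted p under 0.05). The median difference of the 7 was 2.46 log2 units, against -0.13 over all features tested. In bulk fractions such as these, more cells of a type and more RNA per cell cannot be told apart. The 7 genes divided into those with a large difference (Zfp36 and Btg2), an intermediate one (Gadd45b and Klf4) and a small one (Klf2, Dusp1 and Ier2).

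**Figure D1:**
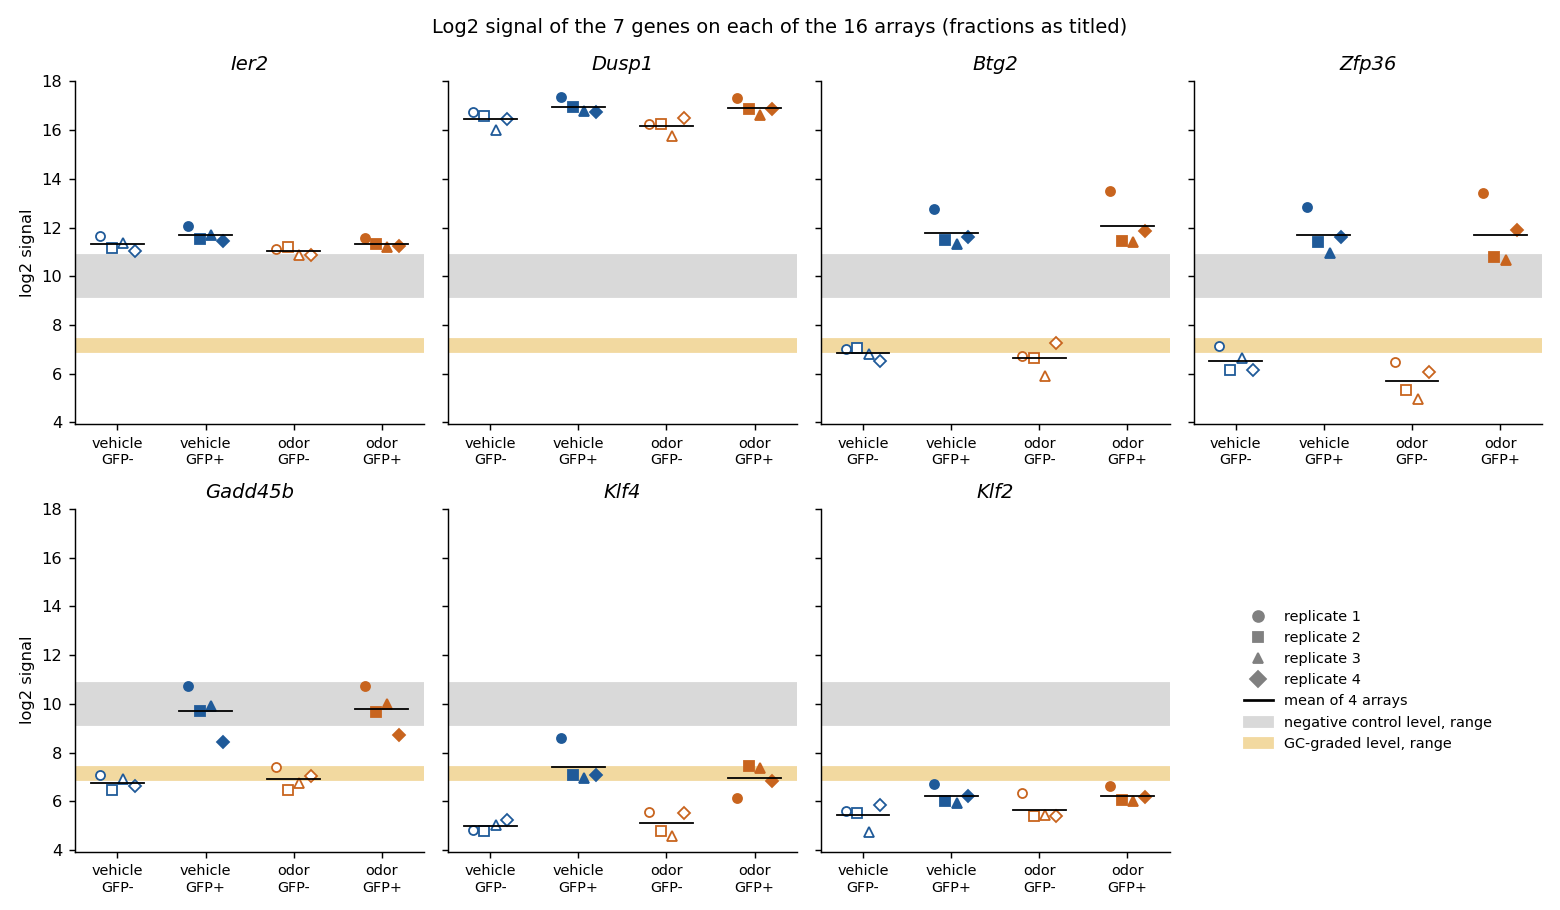
Log2 signal of each gene on each array, by treatment and titled fraction; open symbols are titled GFP-, filled symbols titled GFP+, marker shapes are replicate numbers and bars are means of 4 arrays. The grey band spans the negative control levels of the 16 arrays (9.14 to 10.9) and the yellow band the GC-graded levels (6.87 to 7.41); Btg2 and Zfp36 lie above the yellow band on all 8 titled GFP+ arrays, while Klf2 lies below it on all 16.

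A signal was set against a pair of background levels per array. The main level was the 95th percentile of the 5222 negative control sets, which ran from 9.14 to 10.9. The second, added after seeing the data, was the 95th percentile of 23 background sets graded by GC content, which ran from 6.87 to 7.41. Where a gene was not above the level on every titled GFP- array, its fold is a lower bound against that level. Each fold written as at least is a point estimate from array means and leaves out sampling error. In vehicle pools the 95% intervals of the fitted folds began lower than the GC-graded bounds. They began at 16.6 for Btg2 (bound 23.6), 16.7 for Zfp36 (22.4) and 4.11 for Gadd45b (5.62). By the main level 50 of the 112 values of the 7 genes were above background, and by the second 66.

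Zfp36, the AU-rich element binding protein, had log2 signals of 12.83, 11.42, 10.96 and 11.62 in the vehicle arrays titled GFP+ and of 7.12, 6.13, 6.63 and 6.17 in those titled GFP-. The groups were far apart, and replicate 1 was highest in each. The difference was 5.20 ± 0.54 log2 units (SE, adjusted p = 2.4e-06), at least 4.30-fold by the main level and at least 22.4-fold by the GC-graded one. Of the titled GFP- arrays 0 of 4 were above the main level and 1 of 4 above the second.

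Btg2, the antiproliferative deadenylase partner, stood at 12.75, 11.48, 11.31 and 11.63 in vehicle titled GFP+ arrays. In vehicle titled GFP- arrays it stood at 7.03, 7.06, 6.81 and 6.53, so the groups did not overlap and replicate 1 was again the highest titled GFP+ array. The difference was 4.93 ± 0.42 (adjusted p = 2.82e-07), at least 4.55-fold by the main level and at least 23.6-fold by the GC-graded one, which 2 of the 4 titled GFP- arrays passed.

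Gadd45b, the stress-induced kinase regulator, had signals of 10.73, 9.72, 9.91 and 8.45 in vehicle titled GFP+ and of 7.08, 6.48, 6.90 and 6.61 in vehicle titled GFP- arrays. Every titled GFP+ array was above every titled GFP- array, and replicate 4 lay lowest of the former. The difference was 2.93 ± 0.42 (adjusted p = 8.49e-05). It amounts to at least 1.07-fold by the main level, which 2 of 4 titled GFP+ arrays passed, and to at least 5.62-fold by the GC-graded one, which all 4 passed.

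Klf4, the differentiation factor, had signals of 8.59, 7.07, 6.98 and 7.06 in vehicle titled GFP+ and of 4.83, 4.79, 5.01 and 5.25 in vehicle titled GFP- arrays. Replicate 1 stood apart from the other titled GFP+ arrays, and the groups did not overlap. The difference was 2.46 ± 0.35 (adjusted p = 8.52e-05). No array passed the main level, so no fold is given by it, and the bound by the GC-graded level was 1.19-fold, with 3 of 4 titled GFP+ arrays above it. Klf2, the quiescence factor of endothelium and T cells, lay below both levels on all 16 arrays. Its vehicle values were 6.72, 6.03, 5.92 and 6.21 against 5.60, 5.54, 4.73 and 5.85, which do not overlap. The difference of 0.79 ± 0.26 passed narrowly (adjusted p = 0.0493), with no fold given. It did not pass under any of the 3 other scalings (adjusted p of 0.075 to 0.221) or without 7 of the 8 pools in turn, the exception being odor replicate 1 (0.0192).

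Dusp1 and Ier2 were above both background levels on every array, and in vehicle pools their differences were the smallest of the 7. Dusp1, the MAP kinase phosphatase, had log2 signals of 17.37, 16.95, 16.77 and 16.74 in vehicle titled GFP+ and of 16.75, 16.56, 16.01 and 16.44 in vehicle titled GFP- arrays. The highest titled GFP- array reached the lowest titled GFP+ array. The difference was 0.52 ± 0.20, or 1.43-fold (95% interval 1.06 to 1.94), with an adjusted p of 0.0972. Ier2 had signals of 12.08, 11.52, 11.70 and 11.46 against 11.66, 11.15, 11.37 and 11.04, which overlap. Its difference was 0.38 ± 0.17, or 1.30-fold (1.02 to 1.66), with an adjusted p of 0.13. With the pool as a block, which sets each titled GFP+ array against the titled GFP- array of the same mice, both passed (adjusted p of 0.0318 for Dusp1 and 0.0319 for Ier2). Klf2 then stood at 0.00711, so that all 7 genes were called higher in vehicle pools. Under that block 2045 of all 19572 features were called higher and 1663 lower. With the pool as a random block, at its estimated correlation of 0.172, Dusp1 (adjusted p = 0.0512) and Ier2 (0.0692) did not pass and 5 genes were called. Of all 19572 features 2155 were then higher and 2021 lower.

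In odor pools 5 of the 7 genes were again higher in the titled GFP+ fraction, Dusp1 now among them and Klf2 not, and none was lower. Of all features 9.98% were called higher, 12.2% lower and 22.2% in either direction. The median difference of the 7 was 1.85 log2 units, against -0.14 over all features. With the differences set at their bounds, the medians of the 7 were 0.38 (vehicle) and 0.31 (odor) by the main level and 0.52 and 0.72 by the GC-graded one. All 4 titled GFP+ arrays lay above all 4 titled GFP- arrays for 5 of the 7 genes in each treatment. Over all features 11.1% did so in vehicle and 10.3% in odor pools.

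Zfp36 had odor signals of 13.43, 10.78, 10.67 and 11.91 in titled GFP+ and of 6.48, 5.31, 4.94 and 6.06 in titled GFP- arrays. In both fractions replicates 1 and 4 lay above replicates 2 and 3. The difference was 6.00 ± 0.54 (adjusted p = 5.5e-07), at least 3.57-fold by the main level and at least 22.0-fold by the GC-graded one. Btg2 had signals of 13.51, 11.47, 11.42 and 11.87 against 6.74, 6.65, 5.89 and 7.26. Its difference of 5.43 ± 0.42 (adjusted p = 9.97e-08) was at least 4.61-fold by the main level and at least 28.3-fold by the second. Replicate 1 was the highest titled GFP+ array of each gene.

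Gadd45b stood at 10.73, 9.68, 9.99 and 8.72 in odor titled GFP+ arrays and at 7.41, 6.46, 6.77 and 7.06 in odor titled GFP- arrays. These values resemble the vehicle ones array by array, replicate 4 again being lowest of the titled GFP+ arrays. The difference was 2.86 ± 0.42 (adjusted p = 1.19e-04), with no fold by the main level and at least 5.82-fold by the GC-graded one. Klf4 stood at 6.16, 7.45, 7.38 and 6.86 against 5.55, 4.80, 4.57 and 5.50. Here replicate 1 was the lowest titled GFP+ array, the reverse of its place in vehicle pools, and the groups still did not overlap. The difference was 1.85 ± 0.35 (adjusted p = 0.00125), with no fold by either level. Klf2 stood at 6.64, 6.06, 6.03 and 6.16 against 6.34, 5.41, 5.46 and 5.40, a difference of 0.57 ± 0.26 (adjusted p = 0.131).

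Dusp1 had odor signals of 17.30, 16.85, 16.62 and 16.86 in titled GFP+ and of 16.24, 16.26, 15.75 and 16.49 in titled GFP- arrays, which did not overlap. The difference of 0.72 ± 0.20 was 1.65-fold (1.22 to 2.23) with an adjusted p of 0.0186. The call was lost without odor replicate 1 (adjusted p = 0.0972), 2 (0.0522) or 3 (0.0501), and after centring the arrays on their median (0.065). Ier2 had signals of 11.56, 11.34, 11.19 and 11.23 against 11.12, 11.20, 10.88 and 10.87, which overlap narrowly. Its difference was 0.31 ± 0.17, or 1.24-fold (0.972 to 1.58), with an adjusted p of 0.194. With the pool as a block, 6 of the 7 genes were called in odor pools, since Klf2 passed (adjusted p = 0.0291) and Ier2 did not (0.0587). Under that block 2131 of all 19572 features were called higher and 2817 lower. With the random block Klf2 did not pass (0.074) and 5 were called, while 2222 of all features were higher and 3231 lower.

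**Figure D2:**
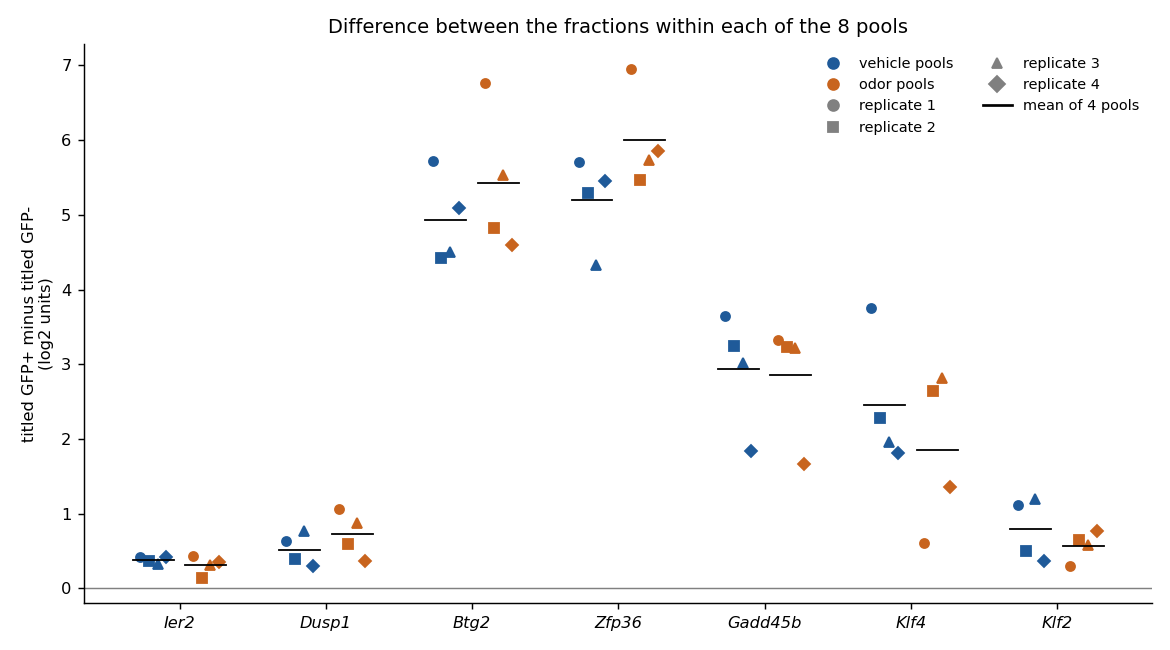
Titled GFP+ minus titled GFP- log2 signal of each gene within each pool of 3 mice, vehicle pools in blue and odor pools in orange; marker shapes are replicate numbers and bars are means of 4 pools. All 56 differences lie above 0, from 0.14 for Ier2 in odor replicate 2 to 6.95 for Zfp36 in odor replicate 1.

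Within pools all 56 differences of the 7 genes were above 0. All 7 genes were thus higher in titled GFP+ cells in every one of the 8 pools, as were 11.5% of all features. The differences of Zfp36 were 5.71, 5.29, 4.33 and 5.46 in vehicle and 6.95, 5.47, 5.73 and 5.85 in odor pools. Those of Btg2 were 5.72, 4.42, 4.50 and 5.10, and 6.76, 4.82, 5.53 and 4.60. The largest of either gene was that of odor replicate 1. Ier2 had the narrowest spread, at 0.42, 0.37, 0.33 and 0.41 in vehicle and 0.43, 0.14, 0.31 and 0.36 in odor pools. Klf4 ran from 1.82 to 3.76 in vehicle and from 0.61 to 2.81 in odor pools.

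The small differences depended on how the arrays were scaled, while the large ones kept their calls. The median over all features was -0.13 in vehicle pools as deposited, -0.54 after centring each array on the median of its tested features and 0.14 after centring on its olfactory receptor median. The difference of Ier2 in vehicle pools was -0.02 under the first centring, a reversed sign, and 0.66 under the second. Dusp1 moved to 0.11 and 0.79, and Klf2 to 0.39 and 1.07. Over all features in vehicle pools the calls, 1922 higher and 1380 lower as deposited, became 1529 and 12456 under the first centring, 1829 and 342 under the second and 1863 and 2643 after quantile normalization. In the same pools Zfp36 ran from 4.79 to 5.48 and Btg2 from 4.53 to 5.21 over every scaling, block and left-out pool tried, and both passed throughout. Both met the filter by the main background level through titled GFP+ arrays alone, so their calls under it add no support. After centring on the median, 50 of the 56 within-pool differences were above 0.

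**Figure D3:**
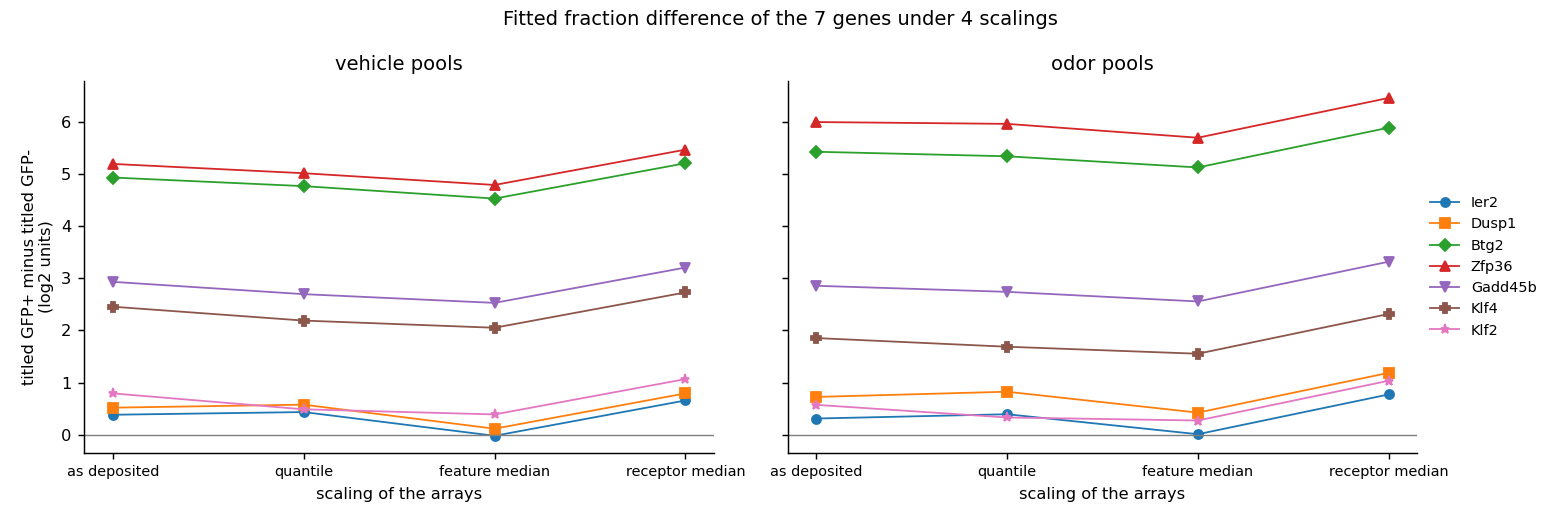
Fitted titled GFP+ minus titled GFP- difference of each gene (log2 units) in vehicle and odor pools, with the arrays as deposited, quantile normalized, or centred on the feature median or the receptor median. Zfp36, Btg2, Gadd45b and Klf4 stay well above 0 throughout, while Ier2 in vehicle pools goes from 0.38 as deposited to -0.02 on the feature median.

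Markers of several other cell types also differed between the fractions. In both treatments 11 of 11 neutrophil markers and 14 of 14 markers of other leukocytes were higher in titled GFP+ cells. Among the latter, C1qa, C1qb and Cd3e were below both background levels on every odor array. The summed signal of the neutrophil markers, as log2 of the sum, was 8.66 to 9.94 on titled GFP- and 18.4 to 19.8 on titled GFP+ arrays. That of the other leukocyte markers was 9.26 to 10.5 and 14.9 to 17.2. In titled GFP- cells 0 of 11 neutrophil and 0 of 14 other leukocyte markers passed the main level on any array. Replicate 1 had the highest other-leukocyte sum of its titled GFP+ group in both treatments, 17.19 in vehicle and 16.77 in odor arrays. For neutrophils it was highest in vehicle (19.77), but in odor arrays replicate 3 was (19.51, against 19.39 in replicate 1). Replicate 1 was the highest titled GFP+ array for 7 of the 7 genes in vehicle and 6 of 7 in odor arrays, against 27.2% and 29.5% of all features. Replicate 4 had the lowest titled GFP+ sums in vehicle and odor arrays, for neutrophils (18.47 and 18.44) and for other leukocytes (15.41 and 14.88). It was the lowest titled GFP+ array for Ier2, Dusp1 and Gadd45b in vehicle and for Gadd45b alone in odor arrays. Zfp36, Btg2 and Klf2 were lowest on replicate 3 in both. The part of neutrophils and other leukocytes in the differences was not tested.

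All 8 microvillar and ionocyte markers were higher in titled GFP+ cells as well, with sums of 11.0 to 11.9 on titled GFP- against 13.2 to 14.8 on titled GFP+ arrays. In each treatment 6 of the 8 passed the GC-graded level on at least 1 titled GFP+ array. Sustentacular markers were higher in 4 of 9 cases in vehicle and 5 of 9 in odor pools, immature OSN markers in 9 of 15 and basal and progenitor markers in 4 of 8 in each, with 0 lower. Of the basal and progenitor genes called, Hes6 and Neurog1 were below both background levels on every array. Sox2 passed the GC-graded level on 1 vehicle titled GFP+ array only, and Kit on all titled GFP+ arrays. The median of that list at its bounds was 0 by either level. Endothelial and mesenchymal markers passed in 0 of 9, and their sums stayed at 7.75 to 8.46 on all arrays. Heat shock genes, a separate class of stress genes, passed in 0 of 8, with median differences of 0.28 and 0.38.

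Of 25 measured family relatives of the 7 genes, 12 were higher in titled GFP+ cells in vehicle and 11 in odor pools, and 0 were lower in either. Their median difference was 0.81 in vehicle and 0.88 in odor pools, or 0.35 and 0.44 with genes at their GC-graded bounds and 0 by the main level. Zfp36l2, which also binds AU-rich elements, was at least 24.5-fold higher in vehicle and 23.8-fold in odor pools (differences of 5.49 and 5.59). Ier3, an early response gene of stress and survival signalling, was at least 13.2- and 7.84-fold higher. Klf5, an epithelial Krüppel-like factor, was at least 5.15- and 7.31-fold higher and Zfp36l1 at least 3.94- and 2.50-fold. These bounds are by the GC-graded level. Gadd45a passed at 1.22 in vehicle and 0.93 in odor pools, above the GC-graded level on all arrays and mostly below the main one. Gadd45g was above the GC-graded level on 0 of 8 titled GFP- arrays and was at least 2.43- and 1.84-fold higher by it, with no array above the main level. The Btg2 relative Btg1, above both levels throughout, passed in both at 1.45 and 1.43, while Tob1 did not, at 0.16 in vehicle pools.

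Among 8 other dual-specificity phosphatases, Dusp6, a cytoplasmic MAP kinase phosphatase, was at least 2.54-fold higher in vehicle and 2.67-fold in odor pools by the GC-graded level, with no fold by the main one. Dusp2 passed in vehicle and Dusp4 in both, but neither was above either background level on any array. Dusp5, Dusp8, Dusp14 and Dusp16 were above both levels on all 16 arrays and did not pass in either, with vehicle differences from -0.15 to 0.12. Dusp10 did not pass either and was above the GC-graded level on 1 of 4 titled GFP- and 2 of 4 titled GFP+ arrays in each treatment. Of the MAP kinases that Dusp1 dephosphorylates, 4 were measured, with medians of -0.25 and -0.03. Mapk14 (p38 alpha) was higher, at 0.73 in vehicle (adjusted p = 0.0471) and 0.79 in odor pools (0.0271). Mapk8 (JNK1) was lower in odor pools at -0.44 (adjusted p = 0.0472) and stood at -0.29 in vehicle pools, while Mapk9 and Mapk10 did not pass.

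Other feedback genes of signalling pathways were higher in 10 of 25 cases and lower in 1 in vehicle pools, and higher in 14 and lower in 2 in odor pools. Their medians were 0.88 and 0.78, or 0.09 and 0.15 at the GC-graded bounds and 0 by the main level. Rgs2, a regulator of G protein signalling, was at least 6.30- and 5.35-fold higher in vehicle and odor pools by the GC-graded level. Plk2, a kinase induced by synaptic activity, was at least 9.44- and 11.0-fold higher. Tnfaip3 (A20), an inhibitor of NF-kappaB, was at least 5.51- and 4.66-fold higher, and Sik1, a kinase that restrains CREB coactivators, at least 3.31- and 3.45-fold. The genes lower in titled GFP+ cells were Spred2 (-0.69 in vehicle and -0.81 in odor pools) and, in odor pools, Spry2 (-0.67). Spry2 was below the main background level on every array. Spred1, Spry1 and Spry4 did not pass in either treatment, with differences of both signs. Of all features 7.05% were lower in vehicle and 12.2% in odor pools.

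Immediate-early transcription factors and effectors were higher in 11 of 17 cases in vehicle pools with 0 lower, and in 10 of 17 with 1 lower in odor pools. Their median differences were 2.09 and 1.11, or 1.13 and 1.02 at the GC-graded bounds and 0 by the main level. Egr2 was at least 50.9- and 35.4-fold higher by the GC-graded level. Egr1, a zinc-finger factor that binds GC-rich elements, differed by 4.63 and 5.26 log2 units and Fos, a subunit of AP-1, by 4.29 and 4.40. Of the 8 titled GFP- arrays, Fos was above the GC-graded level on 8 and Egr1 on 7. Nr4a3, an orphan nuclear receptor, was at least 2.81- and 2.22-fold higher. It was above the GC-graded level on 4 of 4 vehicle but only 2 of 4 odor titled GFP+ arrays. The neuronal activity genes Npas4 and Arc were below both background levels on every array, so no difference is given. Maff, a small Maf protein, was the lower gene, at -0.68 in odor pools with no array above either background level.

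Messenger RNAs with AU-rich elements that Zfp36 is known to bind were higher in 9 of 13 cases in vehicle and 8 of 13 in odor pools, with 0 lower. Their medians were 1.84 and 1.85, or 0.29 and 0 at the GC-graded bounds and 0 by the main level. Il1b, an inflammatory cytokine of myeloid cells, was at least 25.5- and 29.4-fold higher by the GC-graded level. The chemokine Ccl3 was at least 11.8- and 8.26-fold higher and Ptgs2, the inducible prostaglandin synthase, at least 2.30- and 1.45-fold. Ptgs2 was above the GC-graded level on 4 of 4 vehicle but only 2 of 4 odor titled GFP+ arrays (odor values 10.76, 7.25, 5.78 and 7.32). Ier3 stands in this list and in that of the relatives. Il10, Csf2, Cxcl1 and Ccl4 were below both background levels on every array, so no difference is given for them. Also below both levels on every array were Il6, counted as higher in both treatments, and Plau, counted as higher in vehicle pools. Of known Klf2 and Klf4 targets, 0 of 5 passed in vehicle and 2 of 5 were higher in odor pools, with medians of 0.38 and 0.57. They were Cdkn1a (0.78, adjusted p = 0.0249), a cell cycle inhibitor that also stands among the feedback genes, and S1pr1 (0.69, adjusted p = 0.0329), a lymphocyte egress receptor below both background levels.

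Activity-dependent OSN genes went the opposite way. Of 6 measured, 5 were lower in titled GFP+ cells in each treatment and 0 higher, with medians of -1.20 and -1.10. The 5 include S100a5, the gene that drives the sorted reporter, whose values are given above. Lrrc3b differed by -1.88 and -1.52 log2 units, Pcp4l1 by -1.67 and -1.69, and Kirrel2, an adhesion molecule of OSN axons, by -1.18 and -0.90. Plcxd3 differed by -1.23 and -0.87, above the GC-graded level and below the main one on all arrays. Kirrel3 did not pass, at 0.23 and 0.33.

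**Figure D4:**
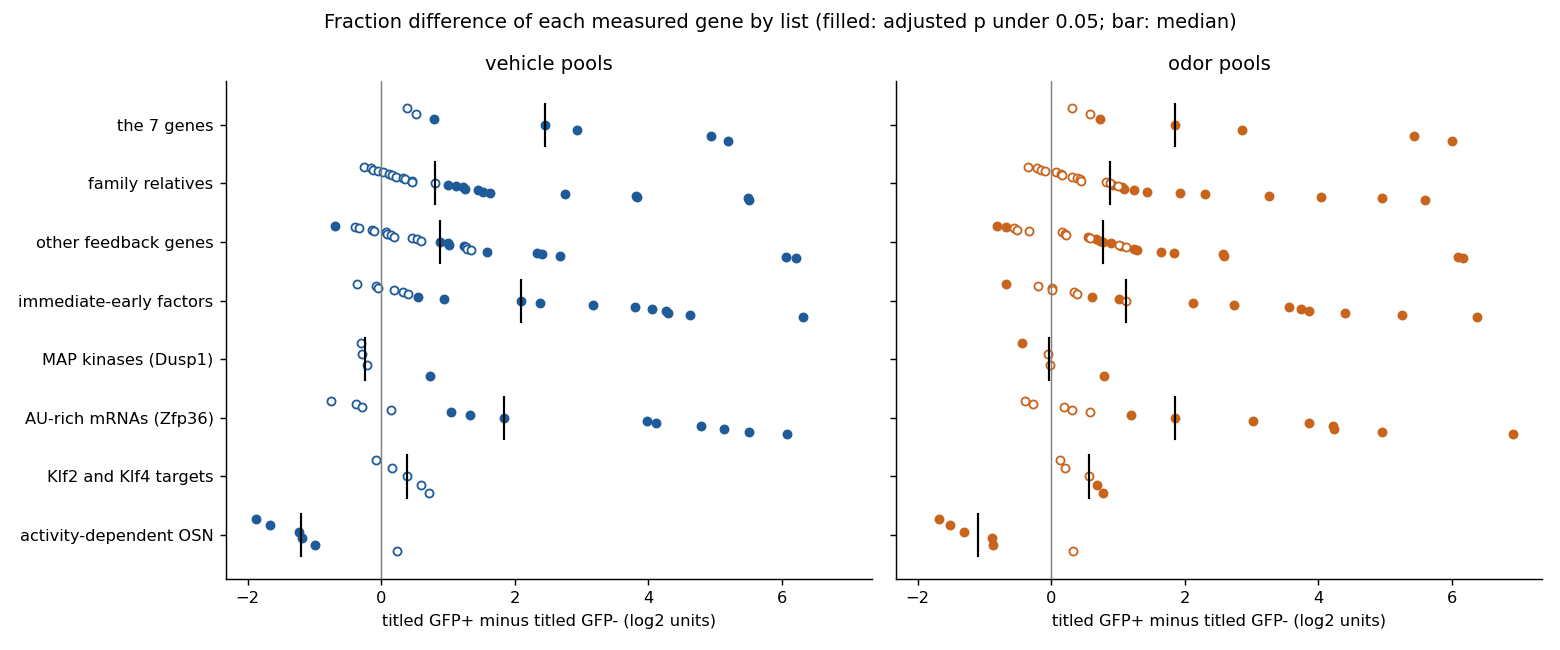
Titled GFP+ minus titled GFP- difference (log2 units) of every measured gene in 8 lists, vehicle pools left and odor pools right; filled symbols passed at an adjusted p under 0.05 and black bars are list medians, with no gene set at a bound. The 7 genes and most feedback and immediate-early lists lie mainly right of 0, while 5 of the 6 activity-dependent OSN genes lie left of it.

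Odor against filtered air gave no call among the 7 genes. In titled GFP+ cells 0 of 7 and 0 of 19572 features (0.0%) passed with limma, with 2016 features at an unadjusted p under 0.05. In titled GFP- cells the counts were 0 of 7 and 0 of 19572 (0.0%), with 805 at an unadjusted p under 0.05. The same-numbered odor and vehicle arrays also deviated together, although they came from different mice. With the number as a block, 0 of 7 still passed, and the single feature called in each fraction was Pcdh10, a protocadherin that was looked up after its value was seen. Its differences were 1.69 in titled GFP+ and 1.74 in titled GFP- cells (adjusted p = 0.00309 and 0.00217).

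The estimates for the 7 genes came with wide intervals. In titled GFP+ cells Btg2 differed by 0.27 log2 units (95% interval -0.61 to 1.16), Zfp36 by -0.01 (-1.15 to 1.12), Gadd45b by 0.08 (-0.82 to 0.97) and Klf4 by -0.47 (-1.22 to 0.28). Dusp1 differed by -0.05 (-0.48 to 0.39) and Klf2 by 0.00 (-0.56 to 0.56). With the replicate number as a block the interval of Klf4 was wider (-1.28 to 0.35) and those of the others were narrower, for example -0.41 to 0.96 for Btg2, -0.64 to 0.62 for Zfp36, -0.54 to 0.70 for Gadd45b and -0.39 to 0.39 for Klf2, and the adjusted p of these 4 ran from 0.765 to 0.998. In titled GFP- cells the largest estimate was that of Zfp36, at -0.82 (-1.95 to 0.32), from values below the main background level. Its same-numbered differences there were below 0 in 4 of 4 pairs (-0.64, -0.82, -1.69 and -0.11), as for 7.57% of all features. With the number block its interval was -1.44 to -0.19 and its adjusted p 0.813. The other 6 ran from -0.29 for Ier2 to 0.22 for Klf2. In the order of mean levels, both titled GFP+ groups of Zfp36, Btg2, Gadd45b and Klf4 stood above both titled GFP- groups, and odor and vehicle of a fraction, neighbours in that order, did not differ beyond their spread.

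Ier2 had the smallest unadjusted p of the 7 in titled GFP+ cells. It was lower with odor by 0.36 log2 units (difference -0.36, 95% interval -0.71 to -0.01, unadjusted p = 0.0464, adjusted p = 0.477). The same-numbered differences were -0.52, -0.18, -0.51 and -0.23, below 0 in 4 of 4 pairs, as for 12.8% of all features. The arrays still overlap, since odor replicate 1 at 11.56 lies above vehicle replicates 2 and 4. With the replicate number as a block the interval was -0.63 to -0.09 and the adjusted p was 0.256. In titled GFP- cells Ier2 differed by -0.29 (adjusted p = 0.999), with pair differences of -0.53, 0.05, -0.48 and -0.17. The number block gave an interval of -0.55 to -0.02 there, with an adjusted p of 0.85.

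**Figure D5:**
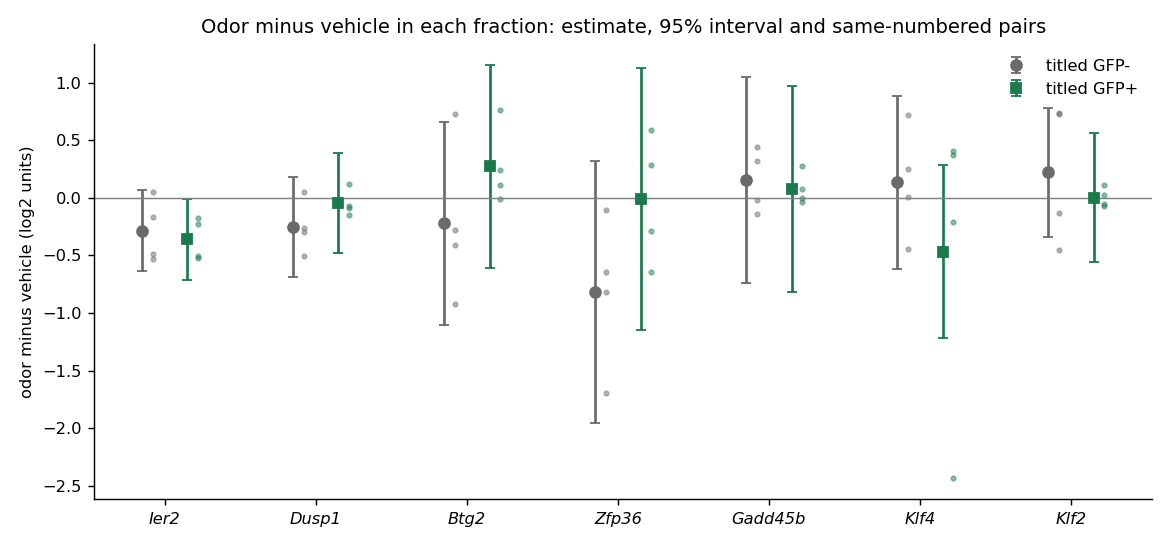
Odor minus vehicle difference (log2 units) of each gene in titled GFP- (grey circles) and titled GFP+ cells (green squares), with 95% intervals of the fit; small dots are the 4 same-numbered pairs. The intervals are from the fit without a block; every one but that of Ier2 in titled GFP+ cells spans 0, and the dot at -2.43 is Klf4 in replicate 1.

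The test of whether the fraction difference itself depended on odor passed for 0 of 7 genes and for 0 of 19572 features (0.0%), with 739 at an unadjusted p under 0.05. The estimates, odor minus vehicle, were 0.80 (-0.80 to 2.41) for Zfp36, 0.49 (-0.75 to 1.74) for Btg2, 0.21 (-0.41 to 0.82) for Dusp1, -0.07 (-0.57 to 0.42) for Ier2, -0.08 (-1.34 to 1.19) for Gadd45b, -0.22 (-1.01 to 0.57) for Klf2 and -0.60 (-1.66 to 0.46) for Klf4. For Klf4, replicate 1 had a fraction difference of 3.76 in vehicle and 0.61 in odor pools.

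Patterns over the 16 arrays were compared by the root mean square (RMS) difference of log2 values after centring each gene on its own mean, a description over arrays that share pools and fractions. Among the 7 genes Dusp1 and Ier2 were closest (0.29), followed by Klf2 with Dusp1 (0.33) and Zfp36 with Btg2 (0.46). The farthest pair was Zfp36 and Ier2 (2.71). The nearest features outside the 7 were E2f2, Egr1 and E2f8 for Btg2 (0.45 to 0.48) and Stk17b, E2f8 and Zfp36l2 for Zfp36 (0.53 to 0.60). For Gadd45b they were Ptpn6, Psd4 and Fam111a (0.27 to 0.31), and for Klf4 Ftl1, Mir692-3 and St3gal3 (0.34 to 0.38). Tbc1d4, Itgb5 and Tmod1 were nearest to Klf2 (0.25 to 0.27), Slc38a2, Rnaseh2a and N4bp1 to Dusp1 (0.17 to 0.19), and Ints12, H2az1 and Nadk to Ier2 (0.16 to 0.17). Genes with small differences have small RMS values to many features, so the values are read within 1 gene's own neighbours.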

How the data were processed

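The authors deposited log2 signals from 16 Clariom S arrays, which Affymetrix Expression Console produced (version not stated) per the submitters' processing notes. How background, normalization and summarization were handled is not given in the sources used here, and the log2 unit was read from the range of the deposited values (1.77 to 19.3). Each labelling used 50 to 100 ng of RNA, per the labels' protocols. Of 28846 entries, 19572 carried 1 gene symbol, and all of these matched a RefSeq gene identifier (GRCm38.p6). The number of arrays limits the precision.

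A limma model with 1 mean per group (limma 3.58.1, R 4.3.3) was fitted to all 19572 features, with two-sided moderated tests adjusted over all of them by Benjamini-Hochberg at 0.05. SE values come from that fit, and the code was tested on simulated data. The 7 genes, the gene lists and the tests were chosen with earlier results of these data known. From each list up to 4 genes past the threshold with the largest vehicle difference (odor difference where none passed in vehicle) were named, and for each of the 7 genes the 3 nearest features. Other list members given with values were picked after their values were seen, for their family. Ier2 was not in the promoter table. Listed genes without a feature were not analysed here.

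Same-numbered fractions share their mice by the titles. Their deviations from the group means correlated at 0.0957 to 0.337 within pools. Each was above the correlation of the same titled GFP- array with the titled GFP+ arrays of other pools of its treatment. Same-numbered odor and vehicle arrays correlated at 0.147 to 0.547, although their mice differ, so the replicate number was added as a block after seeing the data. The alternatives were 3 other scalings, filters on dim features, pool and number blocks, a trended robust variance and each pool left out.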

Additional observations from a re-analysis of the deposited data

Results flagged for a closer look

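Of 56 sets of 4 values examined, 3 held a value far from the other 3. Chance alone puts about 1 set in 20 past this limit. The sets were the arrays of a group, the pool differences of a treatment and the same-numbered odor minus vehicle differences of a fraction. Klf2 on the odor titled GFP- array of replicate 1 stood at 6.34, against 5.40 to 5.46 on the others, all below background. Klf4 on the vehicle titled GFP+ array of replicate 1 stood at 8.59, against 6.98 to 7.07. The fraction difference of Gadd45b in odor replicate 4 was 1.66, against 3.22 to 3.32 in the other odor pools.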

How the results depend on the processing

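In both treatments Zfp36, Btg2, Gadd45b and Klf4 passed under each scaling, block, variance model and left-out pool. Keeping only features above the main background level on 4 arrays left 2 of 7 genes called in vehicle and 3 in odor pools, since Klf2, Klf4 and Gadd45b were then not tested. Zfp36 and Btg2 met this filter through titled GFP+ arrays alone. Leaving out 1 pool at a time gave 4 to 5 genes called in each treatment. With the pool as a fixed replicate block, 7 genes were called in vehicle and 6 in odor pools. With the random block 5 were called in each. The counts over all features under these blocks are given with the results. The block changed no call of odor against vehicle among the 7 genes. The median of the negative controls as background put 97 of 112 values above it, against 50 by the main level. Over all features in odor pools, 1953 were higher and 2385 lower as deposited, against 1534 and 9658 on the feature median, 2440 and 343 on the receptor median, 654 and 1543 with the filter and 1451 and 1238 without odor replicate 1. In vehicle pools 1457 and 681 passed without vehicle replicate 1, and 560 and 701 of the 6767 kept features with the filter.

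Reversed signs occurred in differences that did not pass. After centring on the feature median, Ier2 in vehicle pools was at -0.021, and the interaction was 0.030 for Ier2 and 0.027 for Gadd45b. After centring on the receptor median the interaction was 0.116 for Ier2 and 0.113 for Gadd45b, and 0.044 for Gadd45b after quantile normalization. Odor minus vehicle in titled GFP+ cells became 0.013, 0.057 and 0.211 for Dusp1 and 0.052, 0.093 and 0.247 for Zfp36 under quantile, feature median and receptor median scaling. With 1 pool left out, the interaction of Gadd45b ran from -0.442 to 0.322. Odor minus vehicle in titled GFP+ cells ran from -0.178 to 0.091 for Dusp1, -0.206 to 0.593 for Btg2, -0.138 to 0.167 for Klf2, -0.588 to 0.363 for Zfp36 and -0.340 to 0.431 for Gadd45b. In titled GFP- cells it ran from -0.429 to 0.030 for Btg2, -0.012 to 0.362 for Klf2, -0.013 to 0.313 for Klf4 and -0.0076 to 0.309 for Gadd45b. The cause was not tested.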
